A study of Mus musculus with 6 samples.

Results

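The Hox transcription factors were described in the epididymal fat of mice, the visceral depot that lies along the epididymis in the male. The members were the protein-coding genes named as a Hox letter (a to d) and a number in the GENCODE M21 annotation, and 39 of the 54532 genes in the count table met that rule, 11 in the Hoxa cluster, 10 in Hoxb, 9 in Hoxc and 9 in Hoxd. Male C57BL/6J mice were fed a normal diet (ND) of 4.5% fat or a high-fat diet (HFD) of 60% fat for 16 weeks from the age of 4 weeks, and RNA-seq was done on 3 epididymal fat samples per diet, named ND 1 to 3 and HFD 1 to 3, none of which had received any other treatment. The comparison asked which genes differ in visceral fat between obese and lean mice. The labels do not say that the 3 samples of a diet came from separate mice, so the p-values measure the spread between these samples, which may be technical.

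Hox proteins are homeodomain transcription factors that give cells their identity along the head to tail axis. Their genes lie in 4 clusters, and the order of the genes in a cluster follows the order in which they act along the body, from the anterior paralog group 1 to the posterior group 13. Cells of connective tissue, fat among them, keep part of this pattern in the adult, so that fat depots from different sites of the body carry different sets of active Hox genes.

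The libraries held 16996896 to 18859320 counts, so the depth was alike. The ND 3 library stood apart. The 11 markers of male tract epithelium summed to 165 CPM (counts scaled to library size) in it and to 7.66 to 9.92 CPM in the other 5 libraries, and the 8 markers of ciliated epithelium to 138 CPM against 2.81 to 6.05 CPM. Epcam, an epithelial adhesion gene, had 751 counts in ND 3 and 0 to 4 in the others, and Foxj1, the regulator of motile cilia, 1090 against 0 to 6. Defb48 had no count in any library and Crisp1, a product of the epididymal duct, had 12 counts in ND 3 and 0 in the others, whereas Lcn5, also of the epididymal duct, had 14 counts in HFD 2 and 0 in ND 3 and the rest. In the comparison of diets, 0 of the 2 epithelial and 0 of the 3 ciliary markers with counts enough to test were called by edgeR or DESeq2, and 1 of each list had an unadjusted p under 0.05. Among the ND libraries, 13 of the tested Hox genes peaked in ND 3. They were Hoxa2, Hoxa3, Hoxa5, Hoxa6, Hoxb2, Hoxb3, Hoxb5 to Hoxb9, Hoxc4 and Hoxd8. Fold changes without ND 3 are also given for them. Markers of adipocytes were plentiful in all 6 libraries, with 10 genes summing to 14556 to 32517 CPM.

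In epididymal fat of either diet, the Hox genes with the most transcript were those of paralog groups 4 to 8, and the Hoxc cluster led. Transcript levels are given as FPKM, which divides the count by gene length and library size and so can be compared between genes. The 39 genes summed to 182, 171 and 187 FPKM in ND 1 to 3 and to 91.8, 113 and 63.5 FPKM in HFD 1 to 3. Each HFD library thus stood below each ND library, and the HFD mean was 49.7% of the ND mean. In whole tissue, fewer cells of a type and less RNA per cell cannot be told apart. Groups 4 to 8 gave 163 ± 4.79 FPKM on ND and 82.0 ± 22.9 FPKM on HFD (mean ± SD, n = 3), which were 90.4% and 91.7% of the Hox total. Groups 1 to 3 gave 4.56 ± 1.34 and 2.34 ± 0.279 FPKM, and groups 9 to 13 gave 12.7 ± 2.19 and 5.02 ± 1.69 FPKM.

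**Figure D1:**
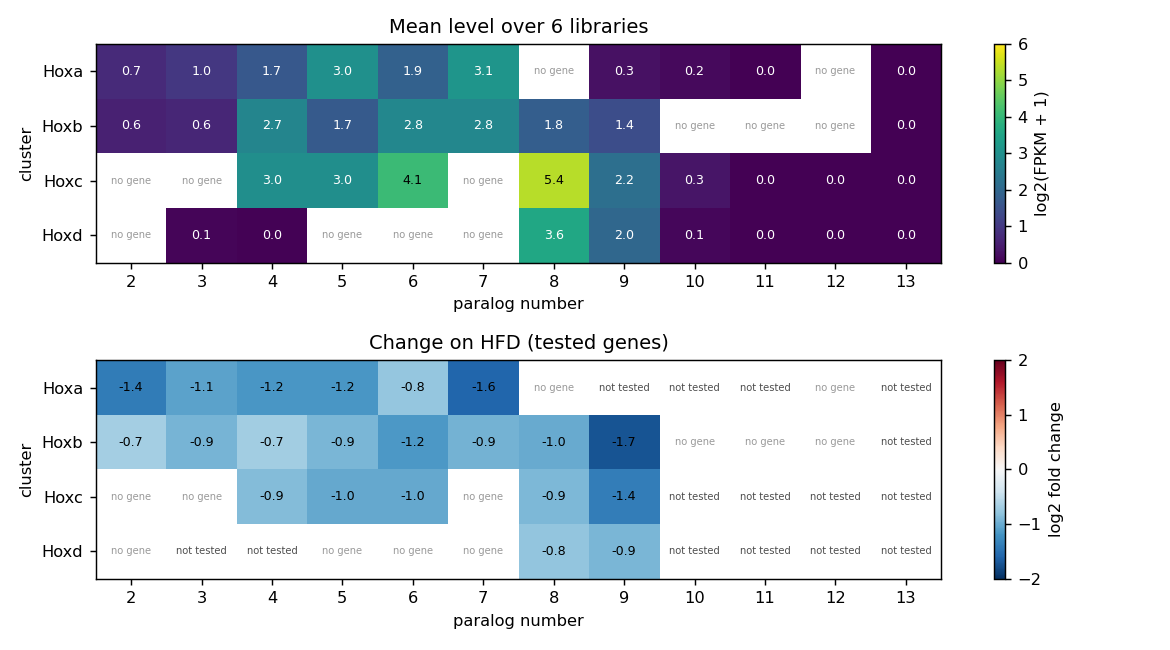
Cluster against paralog number for the Hox genes of groups 2 to 13, with the mean level over the 6 libraries as log2(FPKM + 1) above and the log2 fold change of HFD against ND in the edgeR fit below; blank cells are positions with no gene, or in the lower panel genes not tested. The levels are highest at groups 4 to 8, Hoxc8 above all, and each tested gene shown has a negative value.

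The 10 Hox genes with the highest mean FPKM were, in order, Hoxc8, Hoxc6, Hoxd8, Hoxa7, Hoxa5, Hoxc5, Hoxc4, Hoxb6, Hoxb7 and Hoxb4. Hoxc8, a thoracic patterning gene that is also known as a repressor of brown fat genes, had 59.2, 52.6 and 45.9 FPKM on ND and 25.8, 39.5 and 18.2 FPKM on HFD, and made up 54.0% ± 2.01 of the Hoxc total on ND and 55.9% ± 1.04 on HFD. Hoxc6 followed at 24.5, 19.2 and 20.4 FPKM on ND and 9.85, 14.3 and 7.19 FPKM on HFD. The level of Hoxc6 was below that of Hoxc8 in every library. Hoxd8 and Hoxa7, the next in order, overlapped in range on ND, with 11.8 to 15.9 and 10.6 to 12.3 FPKM. Mean levels from Hoxa5 down to Hoxb4 ran from 7.06 to 5.65 FPKM over the 6 libraries, closer together than the range of each of these genes over the libraries.

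At the posterior end little was found. None of the 12 genes of groups 10 to 13 was tested, for want of counts, and together they gave 0.736 ± 0.546 FPKM on ND and 0.22 ± 0.16 FPKM on HFD. The diets overlapped, with 1.35, 0.528 and 0.325 FPKM in ND 1 to 3 and 0.201, 0.389 and 0.07 FPKM in HFD 1 to 3. Hoxc11, Hoxc12, Hoxc13, Hoxd11, Hoxd12 and Hoxd13, which pattern limbs, tail and genitalia, had no count in any library, and neither had Hoxb1, the anterior hindbrain gene. For these 7 genes a count of 0 allows up to 3 counts per library, or 0.15 to 0.181 CPM. This limit covers counting error alone.

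The 4 clusters did not weigh equally. Hoxc (chr15:102921103-103036852, GRCm38) gave 54.2% ± 6.97 of the Hox FPKM on ND and 54.6% ± 5.8 on HFD, Hoxb (chr11:96194316-96368256) 18.3% ± 5.33 and 19.2% ± 3.22, Hoxa (chr6:52155590-52260880) 17.5% ± 1 and 14.7% ± 2.16, and Hoxd (chr2:74668310-74765142) 10.03% ± 0.996 and 11.5% ± 0.766. The shares of Hoxb, Hoxc and Hoxd overlapped between the diets, and those of Hoxa came close, at 16.8% to 18.7% on ND and 12.4% to 16.7% on HFD. The sums did not overlap in any cluster. Hoxa summed to 30.6, 29.2 and 34.8 FPKM on ND and 15.3, 14.04 and 9.58 FPKM on HFD. Hoxb summed to 24.4, 29.8 and 44.8 FPKM against 18.4, 17.6 and 13.9 FPKM, the ND 3 library being the highest. Hoxc summed to 111, 93.6 and 87.7 FPKM against 46.9, 69.2 and 32.7 FPKM. In Hoxd the values were 16.2, 18.4 and 19.4 FPKM against 11.1, 11.98 and 7.38 FPKM. The HFD means were 41.2%, 50.4%, 50.9% and 56.3% of the ND means for Hoxa, Hoxb, Hoxc and Hoxd. With 3 libraries per diet an exact permutation test of one value cannot go below p = 0.1, so the sums were not tested.

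**Figure D2:**
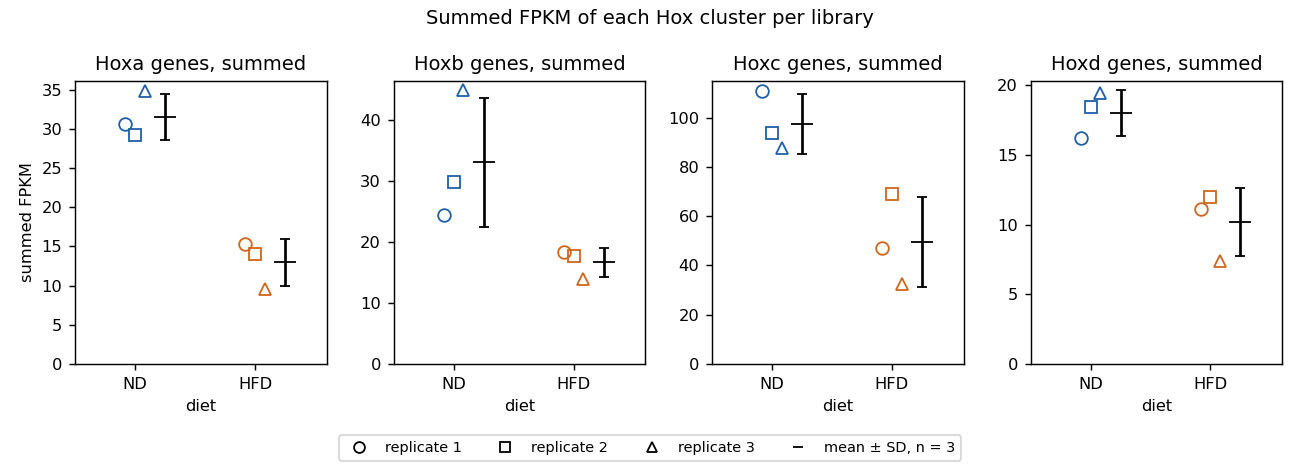
Summed FPKM of the genes of each Hox cluster in each library, by diet, with the mean and SD of 3 libraries as a bar and symbols for the replicate number. In each of the 4 clusters the 3 HFD libraries lie below the 3 ND libraries, and HFD 3 is the lowest, at 9.58 (Hoxa), 13.9 (Hoxb), 32.7 (Hoxc) and 7.38 (Hoxd).

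Gene by gene, 10 Hox genes fell on HFD and 0 rose in edgeR's quasi-likelihood test (Benjamini-Hochberg adjusted p under 0.05 over 15751 genes). They came from each cluster: Hoxa3, Hoxa4, Hoxa5 and Hoxa7, Hoxb4, Hoxb5 and Hoxb6, Hoxc6 and Hoxc9, and Hoxd8. Of all genes tested, 6.04% were called lower and 9.85% higher. Of the 39 Hox genes, 22 had counts enough for the test, 10 had some counts and were not tested, and 7 had none. All 22 tested genes had a negative log2 fold change, from -1.72 to -0.69 with a median of -0.97, while the median over all genes tested was 0.01 and 49.5% of them were negative. Of the 22, 21 stood above the low-count limit of 0.557 CPM in all 3 HFD libraries as well, and Hoxa2 was under it in 1 HFD library, HFD 3.

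At an unadjusted p under 0.05, 17 of the 22 were lower, against 15.3% of all genes tested. In 18 of the 22 the 3 HFD values lay below the 3 ND values, and such a split was seen in 19.1% of the genes tested. The DESeq2 Wald test gave an adjusted p to 26 Hox genes and called 16 of them lower and 0 higher, the 10 above included, against 8.42% of all genes called lower. The additional 6 were Hoxa9, Hoxb7, Hoxc4, Hoxc5, Hoxc8 and Hoxd9. On simulated data with 100 of 15751 genes changed by 1 and 100 by 2 on the log2 scale, DESeq2 made 43 false calls among 187. EdgeR made 10 among 127. A larger share of genes was called in the data themselves, so these false shares do not carry over to the Hox calls.

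**Figure D3:**
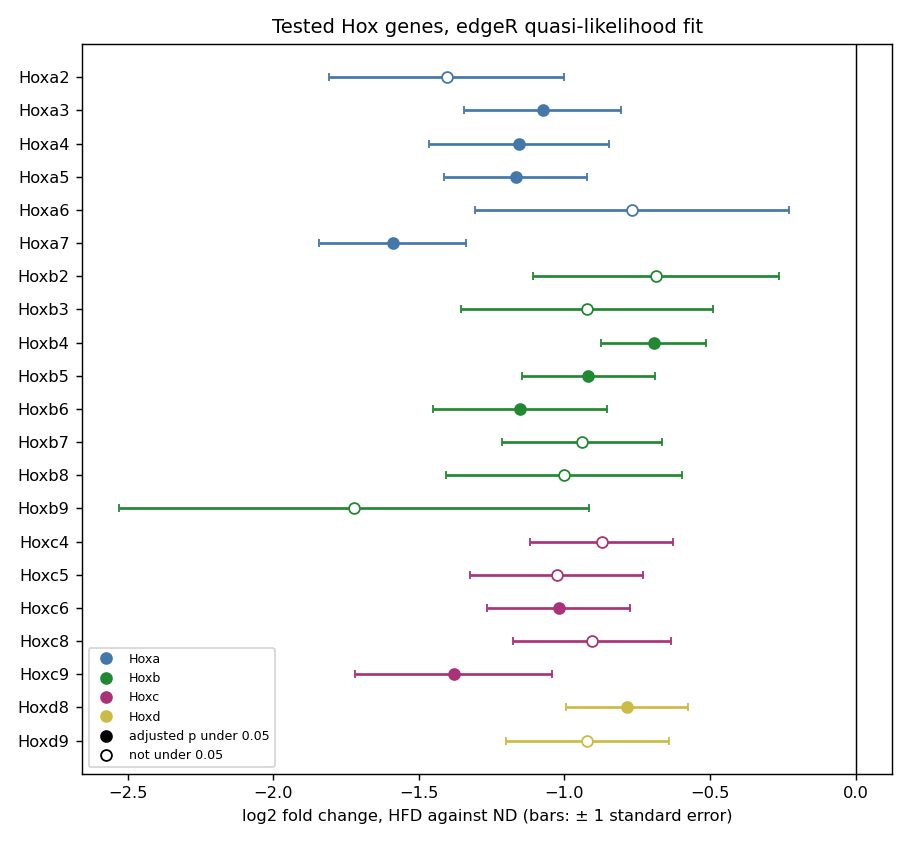
Log2 fold change of HFD against ND for 21 of the 22 tested Hox genes, with bars of 1 standard error, coloured by cluster and filled where the adjusted p is under 0.05 in edgeR's quasi-likelihood test. The 21 points run from -1.72 (Hoxb9, with the widest bar) to -0.69 (Hoxb2), and 10 are filled.

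The letters upstream of a RefSeq start are shown for 1 gene from each cluster, as homeodomain proteins bind short motifs with a TAAT core. RefSeq promoter windows (GRCm38.p6, 250 bases before a gene's start, 5′ to 3′ on the gene's strand) were at hand for 22 of the 39 genes, in 24 windows, and Hoxc4 was the Hoxc gene among them. The Hoxa5, Hoxb4 and Hoxd8 windows end at the start of the gene as annotated for the counts, while the Hoxc4 window belongs to a later start and lies within the counted gene (chr15:103018934-103036852). Capitals mark TAAT or its reverse complement ATTA.
Hoxa5, chr6:52204588-52204837, - strand: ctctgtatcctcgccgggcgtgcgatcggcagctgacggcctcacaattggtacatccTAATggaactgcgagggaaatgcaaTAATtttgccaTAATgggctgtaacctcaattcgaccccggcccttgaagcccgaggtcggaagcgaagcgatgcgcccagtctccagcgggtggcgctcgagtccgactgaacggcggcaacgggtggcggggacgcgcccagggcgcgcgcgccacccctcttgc
Hoxb4, chr11:96318017-96318266, + strand: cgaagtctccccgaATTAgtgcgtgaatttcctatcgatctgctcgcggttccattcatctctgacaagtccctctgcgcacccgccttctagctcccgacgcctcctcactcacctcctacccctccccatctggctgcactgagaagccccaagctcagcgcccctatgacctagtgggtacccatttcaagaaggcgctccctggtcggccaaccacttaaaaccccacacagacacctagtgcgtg
Hoxc4, chr15:103034145-103034394, + strand: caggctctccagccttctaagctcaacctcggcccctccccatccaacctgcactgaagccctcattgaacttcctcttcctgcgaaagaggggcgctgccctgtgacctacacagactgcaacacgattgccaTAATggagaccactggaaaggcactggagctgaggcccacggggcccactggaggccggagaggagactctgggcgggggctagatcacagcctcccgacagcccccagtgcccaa
Hoxd8, chr2:74704365-74704614, + strand: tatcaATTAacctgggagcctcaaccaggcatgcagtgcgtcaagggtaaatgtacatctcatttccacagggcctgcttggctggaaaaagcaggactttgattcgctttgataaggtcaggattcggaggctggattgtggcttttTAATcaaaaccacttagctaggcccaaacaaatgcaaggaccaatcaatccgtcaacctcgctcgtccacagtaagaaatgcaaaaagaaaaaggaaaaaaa
Hoxa5 held 3 such matches, Hoxd8 2, and Hoxb4 and Hoxc4 1 each. TAAT on either strand stood in 75.0% of the 24 Hox windows and in 54.9% of all 32851 windows of that length. TTTATG, the core bound by Cdx factors, stood in 20.8% against 10.8%, with 2 matches each at Hoxa7 and Hoxb8. TGATTGAT, a joint Hox and Pbx site, stood in 8.3% against 0.7% (Hoxa2 and a window of Hoxd11). TGACAG, a Meis site, stood in 8.3% against 15.9%, and AGGTCA, a nuclear receptor half-site, in 6 of 24 Hox windows against 4607 of all 32851. The Hox windows held a median of 12.5 CG pairs and all windows 6. Each motif was searched on both strands and matches of different motifs could overlap. A match describes letters in the window, not a bound site.

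In the Hoxa cluster 7 of 11 genes were tested and 4 of them fell, against 6.04% of all genes tested. Hoxa7, a trunk patterning gene, had 645, 589 and 609 counts across ND 1 to 3 and 179, 258 and 134 across HFD 1 to 3. Its HFD values were all far below ND, at 33.2% of the ND mean (log2 fold change -1.59 ± 0.25 SE, adjusted p = 0.0114), and it had the lowest fold change of the Hoxa genes tested with edgeR. Hoxa5, known for its part in lung development, had 288, 280 and 453 counts under ND, compared with 187, 132 and 105 under HFD. These did not overlap, although ND 3 was the highest of its group (log2 fold change -1.17 ± 0.25 SE, adjusted p = 0.0229). Without ND 3 the log2 fold change of Hoxa5 was -1.01 in edgeR's quasi-likelihood test (adjusted p = 0.0658). Hoxa4 had 102, 82 and 78 counts with ND against 50, 33 and 28 with HFD (-1.16 ± 0.31 SE, adjusted p = 0.0452). Hoxa3, which is needed for thymus and parathyroid, had 136, 112 and 187 counts against 83, 46 and 64 (-1.07 ± 0.27 SE, adjusted p = 0.0373), and 27.1% of its exon bases are shared with other annotated genes. Without ND 3 the log2 fold change of Hoxa3 was -0.95 in edgeR's quasi-likelihood test (adjusted p = 0.0924).

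The other Hoxa genes were not called. Hoxa2, a gene of the hindbrain and branchial arches, had 28, 20 and 44 counts against 14, 10 and 8, which did not overlap (-1.41 ± 0.40 SE, adjusted p = 0.055). Without ND 3 its log2 fold change was -1.16. Hoxa6 had 27, 42 and 96 counts against 49, 20 and 21, which overlapped between diets. For Hoxa6, whose highest value was in ND 3, the log2 fold change of -0.77 went to -0.22 without that library. Hoxa9, a gene of posterior trunk and of blood progenitors, was under the count limit, with 73, 9 and 32 counts across ND 1 to 3 and 3, 3 and 4 across HFD 1 to 3, and 58.9% of its counts came from ND 1. DESeq2, without that limit, gave it an adjusted p of 0.00178. Hoxa10, a gene of the reproductive tract, had 29, 1 and 9 counts against 0, 2 and 1, Hoxa11 had 3 counts and Hoxa13 2, all of them in ND 1.

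In the Hoxb cluster 8 of 10 genes were tested and 3 of them fell, against 6.04% of all genes tested. Hoxb4, best known for self-renewal of blood stem cells, had 317, 322 and 348 counts under ND, compared with 224, 202 and 147 under HFD. The ND values lay close together and above all HFD values, with the HFD mean at 61.8% of ND (-0.69 ± 0.18 SE, adjusted p = 0.0412). Hoxb5 had 129, 140 and 190 counts against 78, 84 and 64 (-0.92 ± 0.23 SE, adjusted p = 0.0365). Its log2 fold change without ND 3 was -0.83 in edgeR's quasi-likelihood test (adjusted p = 0.0934). Hoxb6 had 187, 273 and 425 counts against 156, 116 and 99 (-1.15 ± 0.3 SE, adjusted p = 0.0418), and its ND values spread widely. Without ND 3 its log2 fold change was -0.90 in edgeR's quasi-likelihood test (adjusted p = 0.101).

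Hoxb7, Hoxb8 and Hoxb9 were not called and peaked in ND 3. Hoxb9 had 53, 31 and 299 counts with ND against 49, 35 and 20 with HFD, so that 61.4% of its counts came from ND 3 and the other 5 libraries overlapped. Its log2 fold change, the lowest of all tested Hox genes at -1.72 ± 0.81 SE (adjusted p = 0.181), was -0.27 without ND 3. Hoxb8 had 114, 103 and 277 counts against 88, 87 and 51, and its value went from -1.001 ± 0.4 SE (adjusted p = 0.131) to -0.52 without ND 3. Hoxb7 had 148, 188 and 328 counts against 114, 97 and 110, with no overlap (-0.94 ± 0.28 SE, adjusted p = 0.0576, and a fold change of -0.65 without ND 3). Epithelial and cilium markers were high in the same library, and their part in these values was not tested.

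The anterior Hoxb2, the highest of the tested Hoxb genes by fold change, had 28, 24 and 62 counts against 20, 18 and 27 and overlapped (-0.69 ± 0.42 SE, adjusted p = 0.293, and a fold change of -0.26 without ND 3). Hoxb3 had 49, 42 and 86 counts against 34, 37 and 15 (-0.92 ± 0.43 SE, adjusted p = 0.179, and a fold change of -0.65 without ND 3). It shares 52.9% of its exon bases with the antisense Hoxb3os, and because it is not stated whether strand was used in counting, reads of the pair cannot be told apart. Hoxb2 shares 27.3% of its exon bases with Hoxb3os as well. Hoxb13, the prostate and tail gene, had 2 counts, both in HFD 3.

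In the Hoxc cluster 5 of 9 genes were tested, Hoxc4 to Hoxc9, and 2 of them fell, against 6.04% of all genes tested. Each of the 5 had all HFD values below ND, a split seen in 19.1% of all genes tested. Hoxc6 had 1073, 782 and 979 counts across ND 1 to 3 and 432, 568 and 300 across HFD 1 to 3, with the HFD mean at 49.3% of ND (-1.02 ± 0.25 SE, adjusted p = 0.0339). Hoxc9, a thoracic gene, had 296, 188 and 200 counts against 108, 92 and 47 and the lowest fold change of the tested Hoxc genes (-1.38 ± 0.34 SE, adjusted p = 0.0357). Hoxc8 had the most counts of any Hox gene, 3051, 2519 and 2589 with ND and 1332, 1845 and 892 with HFD. It missed the threshold, and its HFD libraries spread from 892 to 1845 (-0.90 ± 0.27 SE, adjusted p = 0.0625).

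Hoxc4 had 441, 323 and 480 counts against 196, 276 and 157 (-0.87 ± 0.25 SE, adjusted p = 0.0525), the highest fold change of the tested Hoxc genes. Its log2 fold change without ND 3 was -0.84. Hoxc5 had 577, 498 and 479 counts against 249, 323 and 142 (-1.03 ± 0.3 SE, adjusted p = 0.0569). Their HFD values ranked in the same order as in Hoxc6 and Hoxc8, HFD 2 the highest and HFD 3 the lowest. Hoxc10, known from subcutaneous fat, where it restrains browning, was not tested and had 25, 7 and 5 counts under ND, compared with 7, 9 and 0 under HFD, which overlapped.

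In the Hoxd cluster Hoxd8 and Hoxd9 carried nearly all of the signal, with Hoxd8 alone giving 76.5% ± 4.79 of the cluster FPKM on ND and 78.4% ± 0.957 on HFD. Hoxd8, a trunk gene, had 588, 641 and 870 counts with ND against 441, 420 and 275 with HFD. The groups did not overlap, and it fell to 58.0% of ND (-0.79 ± 0.21 SE, adjusted p = 0.0452). Its log2 fold change without ND 3 was -0.69 in edgeR's quasi-likelihood test (adjusted p = 0.118). Hoxd9 had 169, 155 and 133 counts against 85, 90 and 52, again without overlap, and was not called (-0.92 ± 0.28 SE, adjusted p = 0.0636). Of the untested genes, Hoxd3 had 4, 3 and 16 counts against 1, 0 and 3, Hoxd10 1, 9 and 2 against 0, 2 and 0, Hoxd1 0, 0 and 5 against 2, 2 and 4, and Hoxd4 0, 0 and 1 against 2, 1 and 1. Hoxd3 and Hoxd4 share 62.9% and 52.3% of their exon bases with other genes.

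**Figure D4:**
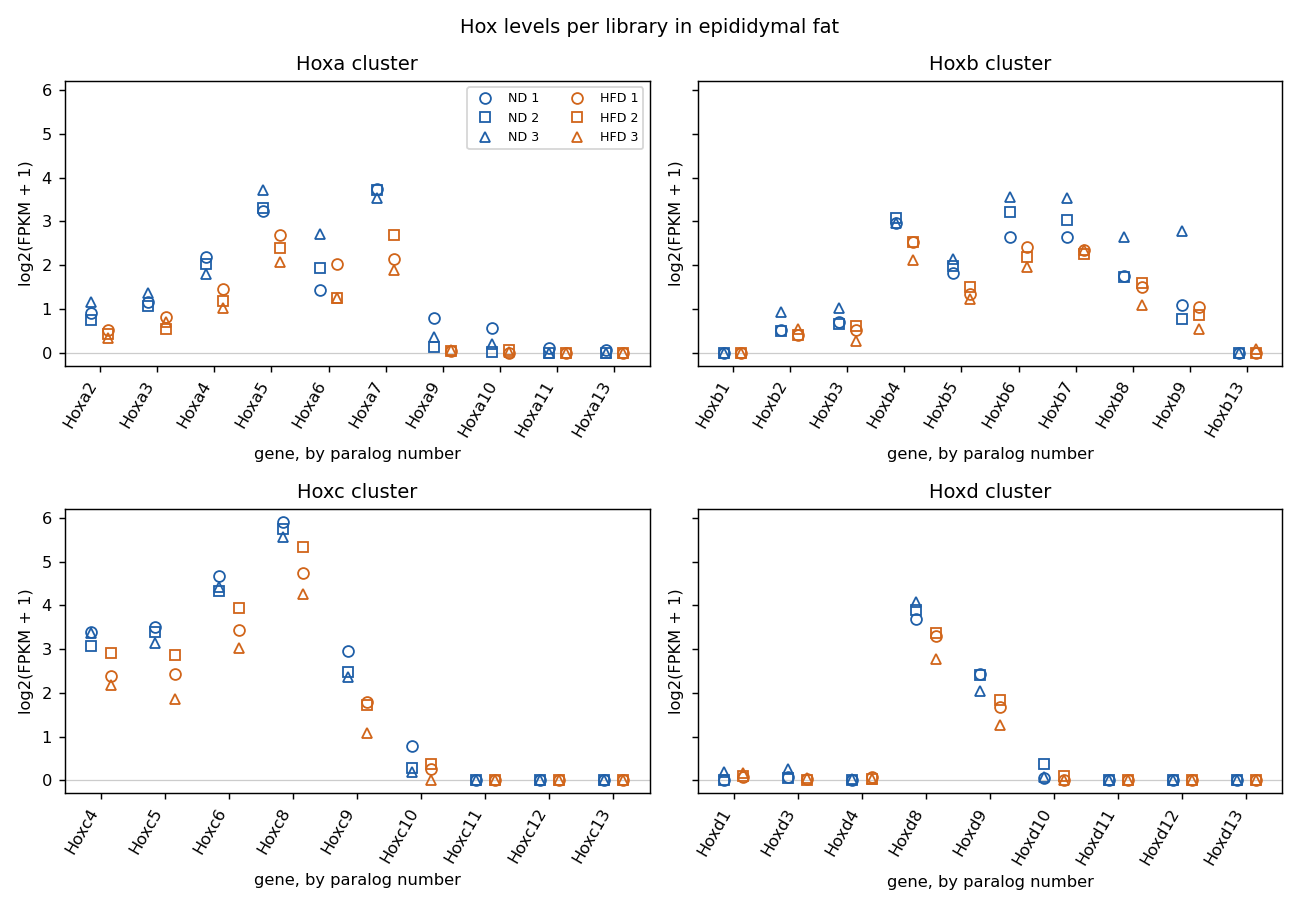
Level of the Hox genes described here in each library as log2(FPKM + 1), by cluster and paralog number, with blue for ND, orange for HFD and a symbol for each replicate. Hoxc8 is the highest in every library, Hoxb9 stands out in ND 3 at 5.83 FPKM, and the genes at the posterior end lie at or near 0.

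The count of Hox genes that passed the threshold changed when a single library was left out, and why it changed was not tested. Without ND 3, Hoxa7 was the 1 gene called (log2 fold change -1.68, adjusted p = 0.0396 in edgeR's quasi-likelihood test), the 22 fold changes stayed negative with a median of -0.87, and 16 had an unadjusted p under 0.05 against 13.5% of all genes. Without ND 1 the 1 gene called was Hoxb6, without ND 2 it was Hoxa9, and without HFD 1 none was, with 17 of 23 Hox genes fitted lower at an unadjusted p under 0.05 against 11% of all genes. Without HFD 2, 11 were called, and without HFD 3, 7. The share of all genes called lower moved as well. It was 0.956%, 1.32% and 2.46% without ND 1, ND 2 and ND 3, and 0.58%, 9.65% and 4.58% without HFD 1, HFD 2 and HFD 3.

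HFD 3 had the lowest value of the HFD libraries in 18 of the 22 tested genes, and HFD 2 the highest in 11. ND 3 had the highest value of the ND libraries in 13 of the 22. Summed over the 39 Hox genes, the libraries gave 466, 429 and 466 CPM in ND 1 to 3 and 230, 291 and 160 CPM in HFD 1 to 3. The sum of the 8 macrophage markers ran the other way. They summed to 1370 to 1466 CPM with ND and to 3946, 3055 and 7118 CPM in HFD 1 to 3, and 5 of the 8 were called higher with a median log2 fold change of 1.55, while Cd163 and Mertk were at -0.05 and -0.02. The 10 adipocyte markers summed to 23491 to 29127 CPM with ND and to 21918, 32517 and 14556 CPM in HFD 1 to 3. The 8 mesothelial markers summed to 236 to 373 CPM with ND and to 298, 277 and 165 CPM in HFD 1 to 3. The 373 CPM was that of ND 3, where the keratins Krt18 and Krt19 had 712 and 828 counts. Elsewhere they had 41 to 89 and 210 to 341 counts. The 10 adipocyte progenitor markers summed to 3263 to 3390 CPM with ND and 2929 to 3210 CPM with HFD, with 0 of 10 called by edgeR, 1 by DESeq2 and 1 at an unadjusted p under 0.05, and a median of 0.03. None of these markers was at 0. Endothelial markers summed to 1194 to 1541 CPM with ND and 683 to 1280 CPM with HFD (0 of 8 called by edgeR, 1 by DESeq2, 1 at an unadjusted p under 0.05), smooth muscle and pericyte markers to 691 to 837 and 298 to 524 CPM (2 of 6 called lower, Rgs5 and Cnn1) and lymphocyte markers to 14.4 to 24.1 and 15.5 to 28.4 CPM (0 of 8 called by edgeR or DESeq2 and 0 at an unadjusted p under 0.05). For the mesothelial markers these counts were 0 of 8 as well. Of the 10 adipocyte markers 8 had a negative fold change, with a median of -0.52. EdgeR called 1 higher (Lep) and 1 lower (Slc2a4), DESeq2 called 4, and 4 had an unadjusted p under 0.05. Over all genes tested, edgeR called 6.04% lower and 9.85% higher. The part of cell composition in the Hox values was not tested.

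**Figure D5:**
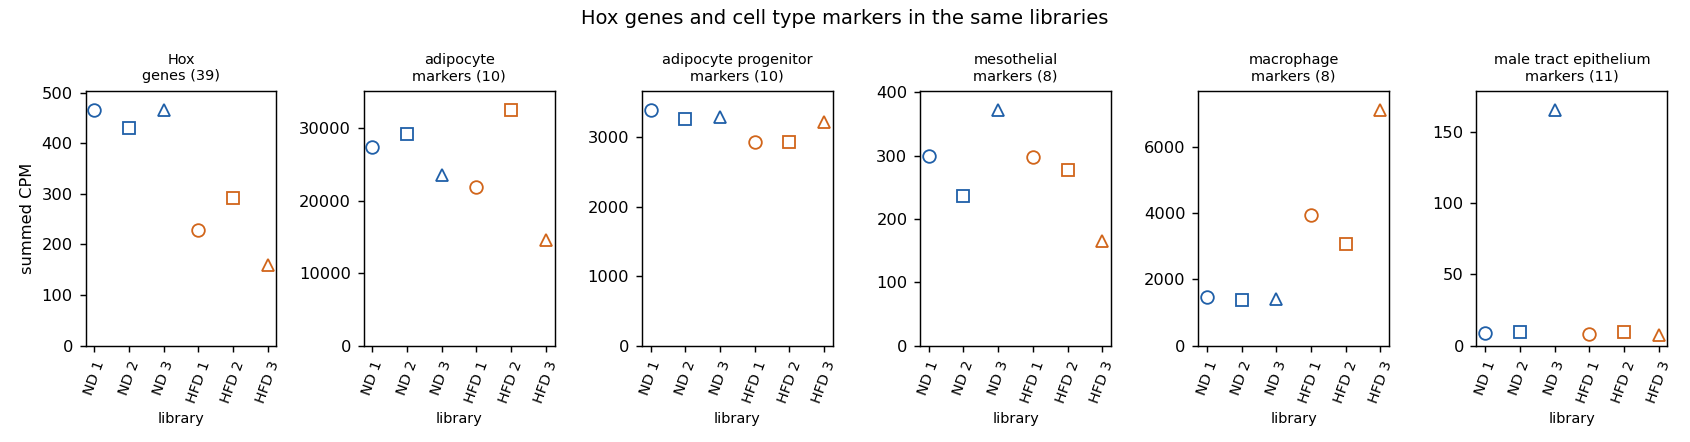
Summed CPM of the 39 Hox genes and of 5 lists of cell type markers in each library, each panel on its own axis from 0. Among the HFD libraries Hox transcript is lowest in HFD 3 (160 CPM), where the macrophage sum is highest (7118 CPM), and the epithelial sum stands out in ND 3 (165 CPM).

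Hox proteins bind DNA with partners of the TALE class, the Pbx, Meis and Pknox homeodomain proteins. Of 9 such genes 8 were tested, with a median log2 fold change of -0.18. Among them 2 fell and 1 rose, against 6.04% and 9.85% of all genes tested. Meis1 had 388, 292 and 367 counts across ND 1 to 3 and 193, 226 and 134 across HFD 1 to 3 (-0.82 ± 0.22 SE, adjusted p = 0.0471), and Meis2 had 362, 346 and 329 against 234, 210 and 228 (-0.54 ± 0.14 SE, adjusted p = 0.0405). Meis3 went the other way, from 159, 143 and 164 counts to 265, 216 and 291 (0.82 ± 0.16 SE, adjusted p = 0.0185). The groups overlapped in none of the 3.

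Chromatin regulators keep Hox genes on or off. None of the 11 trithorax group genes, which maintain active Hox genes, passed the edgeR test (median log2 fold change -0.04), while 4 had an unadjusted p under 0.05 and DESeq2 called 2. The 4 went both ways, with Kmt2a (0.52) and Dot1l (0.62) higher and Dpy30 (-0.33) and Kdm6b (-0.55) lower. Over all genes tested, 15.3% were lower at that unadjusted p. DESeq2 called 1596 of 18952 genes lower and 2033 higher. Of the 20 Polycomb group genes, which maintain repression, 3 fell and 0 rose (median -0.07), against 6.04% and 9.85% of all genes tested. The 3 were Pcgf2 (224, 188 and 306 counts against 130, 117 and 89, -0.99 ± 0.22 SE, adjusted p = 0.025), Cbx6 (-0.82 ± 0.17 SE, adjusted p = 0.0208) and Phc1 (-0.75 ± 0.19 SE, adjusted p = 0.0411), all of them parts of Polycomb repressive complex 1.

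Of 8 upstream regulators, 5 were tested and 0 passed the edgeR test, with 1 at an unadjusted p under 0.05 and 1 called by DESeq2. The 3 Cdx genes, which switch on trunk Hox genes in the embryo, had no count. Gdf11, a signal for posterior identity, had 87, 94 and 86 counts under ND, compared with 55, 29 and 40 under HFD (-1.03 ± 0.3 SE, adjusted p = 0.0551). Among 21 other positional transcription factors, 15 were tested, and 1 rose and 1 fell, against 9.85% and 6.04% of all genes tested. Prrx1, a mesenchymal homeobox gene, rose (749, 578 and 677 counts against 1021, 913 and 1486, 0.87 ± 0.2 SE, adjusted p = 0.029), and Gata6, a factor of visceral mesoderm, fell (579, 428 and 515 against 241, 249 and 162, -1.13 ± 0.2 SE, adjusted p = 0.0143).

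Within the 4 clusters lie 43 noncoding genes, of which 21 had no count and 11 were tested. Of the 11, 10 had a negative fold change, with a median of -0.86, and 2 fell. Over all genes tested, 49.5% were negative and 6.04% were called lower. Gm11536 in Hoxb had 33, 29 and 24 counts with ND against 11, 8 and 5 with HFD (-1.75 ± 0.41 SE, adjusted p = 0.0303), and Gm15050 in Hoxa had 42, 36 and 57 against 19, 19 and 13 (-1.29 ± 0.33 SE, adjusted p = 0.0399). Hotairm1, a long noncoding RNA of the Hoxa cluster, had 188, 199 and 216 counts against 117, 115 and 53, without overlap (-0.99 ± 0.31 SE, adjusted p = 0.0688). Hotair, in the Hoxc cluster, had no count. Of the protein-coding neighbours outside the clusters, up to 500 kb on either side, 39 were tested. Of these 6 were called higher and 1 lower, with a median of 0.04, against 9.85% and 6.04% of all genes tested. The 4 highest of the called were Nckap1l, a gene of blood cells (2.85), Prr13 (1.27), Itga5, an integrin chain (1.21), and Gngt2 (0.96), and the lower one was Ppp1r1a, an inhibitor of protein phosphatase 1, at -1.93 ± 0.23 SE (adjusted p = 0.00651). No test was made of the difference between the clusters and their neighbours.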

How the data were processed

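Epididymal fat RNA was sequenced from 3 ND and 3 HFD samples, with NEBNext Ultra libraries per the labels. The authors deposited raw read counts and FPKM values per gene, the FPKM values being counts divided by gene length and a library factor, a relation checked on 11492 genes with over 50 counts. The submitters' processing notes name CASAVA 1.8, fastp, HISAT2 2.0.5, featureCounts 1.5.0-p3 and DESeq2 1.20.0 with a human build (GRCh38, hg38), whereas the methods of the study name a mouse genome and other alignment tools. The gene identifiers are those of mouse, and 54409 of 54532 were found in GENCODE M21 (GRCm38), from which names, positions and exon overlaps were taken. Whether strand was used in counting is not given in the sources used here.

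Counts were tested with edgeR 4.0.16 (R 4.3.3) by the quasi-likelihood test with TMM scaling after filtering low counts, in a model of diet over the 6 libraries, with Benjamini-Hochberg adjustment over 15751 genes and a threshold of 0.05. DESeq2 1.42.0, limma 3.58.1 (voom, and log2 of FPKM with pseudocounts of 1 and 0.1), other scalings and filters, a block on replicate number and leaving out each library were the alternatives. A fold change on the log2(FPKM + 1) scale understates low genes. On simulated data for this comparison (15751 genes, 100 changed at each size), edgeR recovered 38 genes changed by 1 on the log2 scale and 79 changed by 2, with 10 false among 127 calls. DESeq2 recovered 57 and 87, with 43 false among 187 calls. A larger share of genes was called in the data, so these false shares do not carry over to them. Depth was 16996896 to 18859320 counts per library. The genes named are those with an adjusted p under 0.05, the 10 Hox genes of highest mean FPKM, the highest and lowest fold change per cluster, and up to 4 called genes per direction in other lists. Other Hox genes, Hotairm1, Hotair, Gdf11, the trithorax genes named and the epithelial genes named for ND 3 were chosen after their values were seen. 1 tested Hox gene is counted in the sums and totals and is not reported here by name. The members and the lists were chosen with earlier results of these data known.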

Additional observations from a re-analysis of the deposited data

How the results depend on the processing

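The count of Hox genes called lower was 10, and it was 16 with DESeq2, 5 with library size scaling alone and 3 (Hoxa7, Hoxc5 and Hoxc9) with the replicate block. It was 8 to 11 with limma-voom, DESeq2 size factors, unfiltered counts, a minimum of 10 counts for 3 libraries, or log2 FPKM. Leaving out 1 library gave 0 to 11. The share of all genes called lower was 6.04% in the main fit, 8.42% with DESeq2, 5.72% with library size alone and 4.46% with the block. With unfiltered counts it was 2.54%, and in the rest of the fits on 6 libraries 5.80% to 6.54%. No Hox gene was called higher under any of these settings. The median over all genes moved by less than 0.1 (log2) under each.

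The other lists gave these counts of called genes, in place of 3, 0, 3, 0, 2, 2 and 7. TALE cofactors gave 1 with the replicate block, 1 on log2 FPKM with either pseudocount and 0 to 2 with a library left out. The trithorax group gave 2 with DESeq2 and 0 to 3 with a library left out. The Polycomb group gave 0 with the replicate block and 0 to 5 with a library left out. Upstream signals gave 1 with DESeq2 and 1 with limma-voom. Other positional factors gave 4 with DESeq2, 1 with the block and 0 to 3 with a library left out. Noncoding genes of the Hox clusters gave 5 with DESeq2, 1 with library size alone, 0 without the filter, 0 with the block and 0 to 4 with a library left out. Flanking genes gave 4 with the block and 2 to 10 with a library left out. The cause of these shifts was not tested. Same-numbered libraries had deviations with correlations of -0.09, -0.06 and -0.01. The deviations were taken from the mean of 3 libraries per diet, so these values cannot decide whether the number marks a pairing.

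The p-values rest on 3 libraries per diet, and genes with few counts, among them Hox groups 10 to 13, could not be tested. The limit given for genes with no count covers counting error alone.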
